A study of Mus musculus with 8 samples.

Results

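The clustered protocadherins are cell surface proteins of the cadherin superfamily whose genes stand in 3 neighbouring clusters, alpha, beta and gamma. They were taken here as every listed gene whose Ensembl identifier carries a Pcdha, Pcdhb (with a number) or Pcdhga, Pcdhgb or Pcdhgc symbol in the GENCODE M21 annotation of GRCm38. This gave 57 of the 20802 genes of the table, with 14 in the alpha, 21 in the beta and 22 in the gamma cluster. A further annotated gene, Pcdhb1, had no row and was not analysed here. The study sequenced hippocampal RNA of 8 male C57BL/6 mice, 4 per group. The Anesthesia group was given ketamine (35 mg per kg, intraperitoneal) once a day for 5 days from PND16 to PND20, and tissue was taken about 1 week later, at PND28. The Control group was injected with saline according to the protocol, while its sample titles call the mice untreated. Each library came from hippocampal tissue of 1 mouse, a mixture of cell types, so fewer cells of a type and less RNA per cell cannot be told apart.

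Each alpha and gamma gene joins its own variable first exon, which encodes the whole extracellular part of the protein, to 3 constant exons shared by its cluster, whereas each beta gene is a single exon. Single neurons switch on a few of the alternate promoters, largely at random, and the resulting proteins recognise copies of themselves on neighbouring membranes. This gives neurites of 1 cell a surface identity and is known for its role in dendrite self-avoidance, axon tiling and neuron survival. The genes at the end of the alpha and gamma clusters, Pcdhac1, Pcdhac2, Pcdhgc3, Pcdhgc4 and Pcdhgc5, are called C-type and are mostly expressed without this random choice.

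All 57 members lie on the plus strand of chromosome 18 (GRCm38), from 36930184 to 37841873. The first exon of alpha genes was 2346 to 3028 bases long and that of gamma genes 2499 to 2961 bases, and the single exon transcripts of beta genes were 2801 to 8695 bases long. The identifiers ENSMUSG00000007440 and ENSMUSG00000102206 are both named Pcdha11 in GENCODE M21. The former holds the start that RefSeq gives to Pcdha10 and is called Pcdha10 here.

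Since the constant exons are shared, reads from them cannot be placed on 1 gene, and the authors' quantification divided them between genes by estimation. The share of a gene's distinct 31-base words found in no other annotated gene measures how far its value rests on its own sequence. This share had a median of 87.9% in the beta cluster (77.5% to 94.8%), 53.8% in the gamma cluster (32.5% to 67.0%) and 36.5% in the alpha cluster (9.3% to 54.5%). Pcdha4 had the lowest share, with 41.1% of its words also found in annotated genes that are not members, and its value is uncertain. The non-member genes that share the most words with the members lie within the same stretch of chromosome 18. The pseudogene Gm36858 shares sequence with the alpha cluster and was listed at 62.7 to 101 normalized counts, and Gm38182 shares sequence with the gamma cluster and was listed at 5.81 to 14.0. Gm42416, annotated as protein coding, shares more words with the alpha cluster than Gm36858 does. It also shares words with the gamma cluster and had no row. Gm37013 and Gm37388, which share words with the gamma cluster, had no row either.

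**Figure D1:**
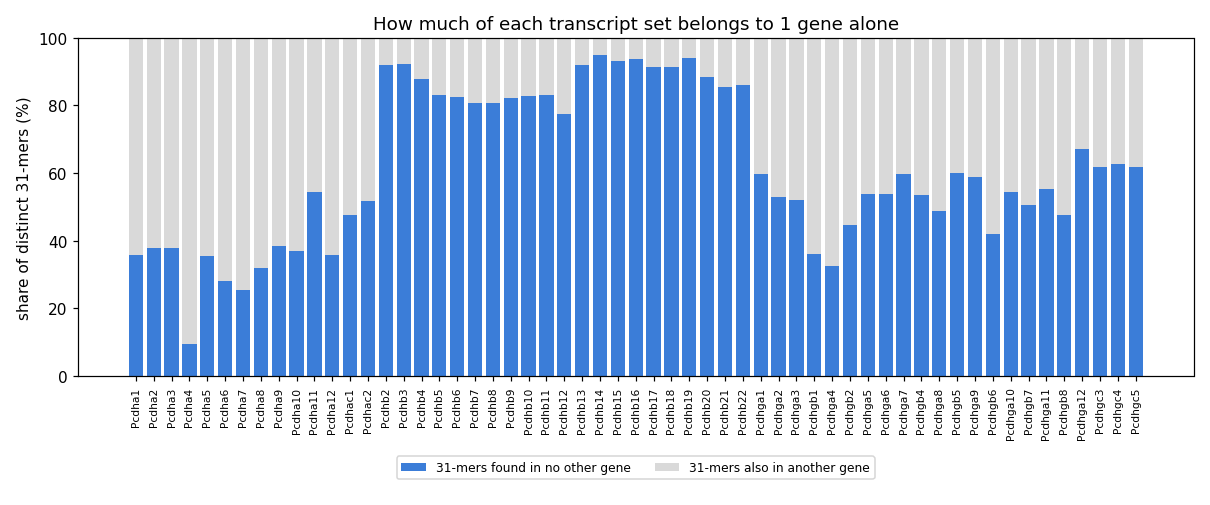
Share of distinct 31-base words of each member's annotated transcripts (vertical axis, %) that occur in no other gene (blue) or in another gene too (grey), with the 57 members in genomic order. Beta genes hold 77.5% to 94.8% of their words alone, and alpha genes 9.3% to 54.5%.

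The deposited values are DESeq2-normalized counts, a depth-corrected signal and not whole reads, with totals of 18702634 to 19231119 per mouse. The step between low values places the reads at approximately 15400000 to 22100000 per library. Markers of the hippocampal neuron types were present in every library, and none of the 10 CA1, 8 CA3 or 10 dentate granule markers was at 0 in any mouse. All 12 markers of choroid plexus, an epithelium beside the hippocampus, were also detected, with a summed level of 822 to 59014 in Anesthesia mice and 1004 to 68714 in Control mice.

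All 57 members passed the filter on low values, a mean of at least 10 normalized counts. Mean levels ran from 56.8 for Pcdhb8 to 1513 for Pcdhgc5. Levels were compared between genes per kilobase of the longest coding transcript. On this scale the gamma cluster held 51.0% ± 1.1 of the summed level of the members, the beta cluster 30.5% ± 0.98 and the alpha cluster 18.5% ± 0.98 (SD, n = 8 mice).

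The 3 members with the highest level per kilobase were all C-type. Pcdhgc5, which is known to bind a GABA-A receptor subunit at synapses, came first with 319 ± 40.9 normalized counts per kilobase (SD, n = 8) and ran from 273 to 405. Pcdhgc3, a regulator of dendrite branching, followed with 184 ± 15.8, and Pcdhac2, which is needed for the even spread of serotonergic axons, with 184 ± 12.8. Pcdhgc5 was above Pcdhgc3 by 1.73-fold with no overlap between the 8 values of each, whereas Pcdhgc3 and Pcdhac2 overlapped. The other C-type genes did not stand out per kilobase of the longest coding transcript. Pcdhgc4, which is required for the survival of inhibitory interneurons, was at 64.3 ± 3.05 per kilobase and ranked 15 of 57, and Pcdhac1 was at 33.7 ± 5.25 and ranked 42.

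**Figure D2:**
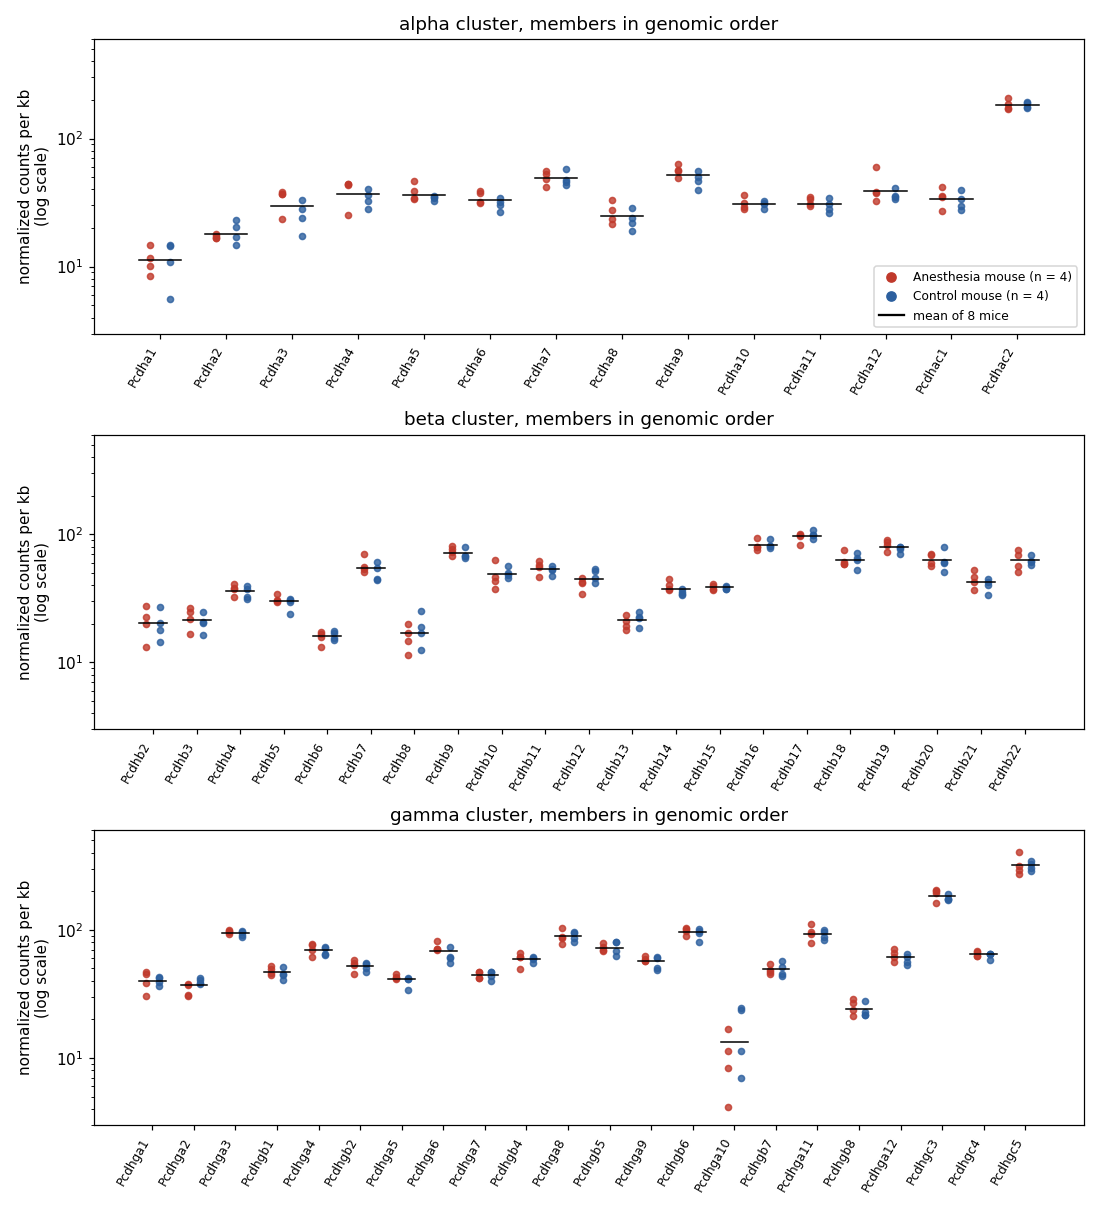
Level of each member in each mouse (normalized counts per kilobase, log scale), with members in genomic order, red points for the 4 Anesthesia mice, blue points for the 4 Control mice and a bar at the mean of 8 mice. Pcdhac2, Pcdhgc3 and Pcdhgc5 stand above the other members of their clusters, and Pcdhga10 has the widest scatter.

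Below the top 3 the levels formed a nearly continuous series. Pcdhb17 ranked next at 96.7 ± 7.30 per kilobase, 1.90-fold under Pcdhac2 with no overlap, and Pcdhgb6 followed at 96.0 ± 7.39. Of the 56 pairs of neighbours in the order of all 57 members, 54 overlapped. The low end held Pcdha1 at 11.4 ± 3.31 and Pcdhga10 at 13.4 ± 7.62, so that the highest member was 28.1-fold above the lowest. The order depended in part on the length used. With the mean length of a gene's transcripts, chosen after seeing the data, Pcdhgc5 was at 524 per kilobase and the range was 44.7-fold, while the first 3 members and their order were the same. Pcdhga4 was then at 120 in place of 70.0 and ranked 4, ahead of Pcdhb17 and Pcdhgb6, and Pcdhb22 was at 93.3 in place of 62.7. The C-type gene Pcdhgc4 was at 93.3 in place of 64.3 and ranked 10.

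In the alpha cluster, Pcdhac2 alone made up 30.2% of the summed level per kilobase (27.5% to 33.0% over the 8 mice). It was 3.53-fold above Pcdha9, the next member, at 52.0 ± 7.35. The 12 alternate alpha genes covered a 4.58-fold range between their means. In the beta cluster, which has no C-type gene, no member stood apart from its neighbour, and the range between means was 6.07-fold. Pcdhb17, Pcdhb16 and Pcdhb19 led it with 9.66%, 8.21% and 7.95% of its sum, and with the mean transcript length Pcdhb22 ranked between Pcdhb17 and Pcdhb16. In the gamma cluster, Pcdhgc5 made up 19.0% and Pcdhgc3 11% of the sum, followed by Pcdhgb6 with 5.72%, which was 1.01-fold above Pcdhga3 with overlap and came after Pcdhga4 with the mean transcript length.

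Both C-type genes together made up 34.8% ± 1.87 of the alpha cluster in Anesthesia mice and 36.7% ± 1.79 in Control mice (SD, n = 4 each). The 3 C-type gamma genes made up 33.9% ± 2.53 and 33.7% ± 1.02 of their cluster, respectively. The ranges of the groups overlapped in both clusters, from 33.2% to 37.5% against 34.9% to 38.5% in alpha and from 31.1% to 37.0% against 32.6% to 34.8% in gamma. With the mean transcript length, the gamma share over the 8 mice was 40.5% in place of 33.8%, and the alpha share 34.0% in place of 35.8%.

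Position in the cluster went with level in beta genes, with a Spearman correlation of 0.64 across 21 genes, as a description of genes measured in the same 8 libraries. The 10 genes from Pcdhb2 to Pcdhb11 had a median of 33.1 normalized counts per kilobase and the 10 from Pcdhb13 to Pcdhb22 a median of 62.9. The same correlation was 0.51 across the 12 alternate alpha genes and 0.12 across the 19 gamma genes without the C-type.

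The spread between mice also differed between members. The median coefficient of variation over the 8 mice was 14.4% in the alpha, 11.7% in the beta and 9.06% in the gamma cluster. These values cover both groups, so any difference between the groups is included. In alpha and gamma genes they also include any error from dividing the shared reads by estimation, and the size of this part was not tested. If 1 normalized count were 1 read, counting alone would give medians of 7.46%, 7.25% and 5.84%. In 5 members, Pcdhb6, Pcdhb15, Pcdhga3, Pcdhga7 and Pcdhgc4, the spread was under this counting level, and in Pcdhb15 the lowest and the highest mouse were at 103 and 115 normalized counts.

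Pcdhga10, a gene of the gamma A type, varied most. It was at 53.4, 80.3, 19.7 and 39.7 normalized counts in the Anesthesia mice and at 112, 33.0, 53.9 and 116 in the Control mice. Its coefficient of variation was 56.7%, against 12.5% from counting, and the highest mouse was 5.92-fold above the lowest. Among 1355 genes with a mean of 50 to 80, only 2.36% had a larger SD within groups on the log2 scale. The groups overlapped, with means of 48.3 in Anesthesia and 78.9 in Control mice. The highest mouse was a Control mouse and the lowest an Anesthesia mouse. Of its 31-base words, 54.5% were its own.

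**Figure D3:**
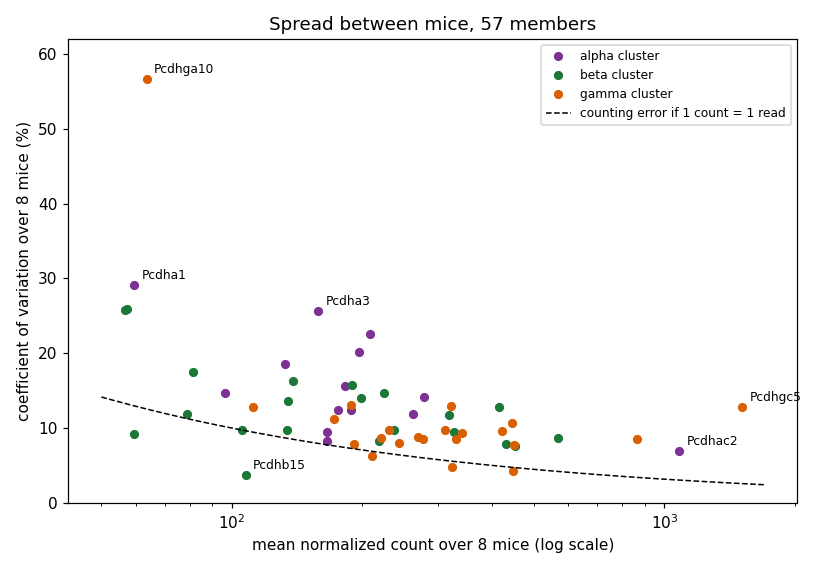
Coefficient of variation over the 8 mice (vertical axis, %) against mean normalized count (horizontal axis, log scale) for the 57 members, coloured by cluster; the dashed line is the counting error if 1 normalized count were 1 read. Pcdhga10 lies at 56.7%, and 5 members lie under the line.

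The comparison of the Anesthesia and Control groups asked whether repeated ketamine anesthesia was followed by a lasting change in these genes. No member passed the test. With limma on log2(normalized count + 1), the smallest adjusted p of a member was 0.624, for Pcdhga6, and 0 of the 18865 genes tested (0%) fell below 0.05 after adjustment. The paper did report differentially expressed genes at an adjusted p under 0.05, from a DESeq2 count model of these libraries. The 0 here therefore holds for the limma test only. Without adjustment 0 of 57 members fell below 0.05, against 8.02% of all genes tested (4.75% higher and 3.27% lower in the Anesthesia group).

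The intervals show how large a change these data leave room for. In 52 of 57 members the 95% interval of the fold change lay within 1.5-fold in either direction, as it did for 65% of all genes tested. It lay within 2-fold in 56 members, with Pcdhga10 as the exception, at a log2 fold change of -0.68 (SE 0.48) and an interval from -1.74 to 0.37. Its value was -0.32 without Anesthesia replicate 3, -0.44 without Control replicate 4 and -1.04 without Control replicate 2. For Pcdhac2 the interval ran from 0.89-fold to 1.13-fold and for Pcdhgc5 from 0.85-fold to 1.20-fold.

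**Figure D4:**
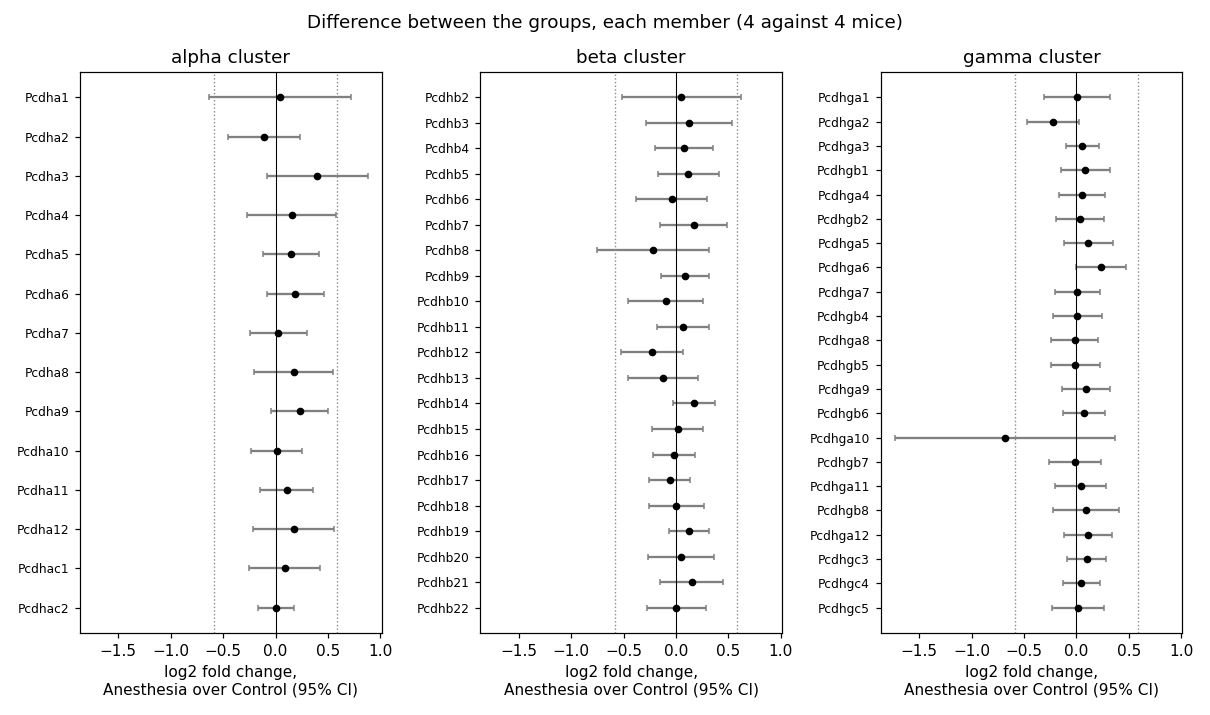
Log2 fold change of each member, Anesthesia over Control (horizontal axis), with its 95% interval from limma as a bar, 4 against 4 mice, members in genomic order from the top; dotted lines mark 1.5-fold in either direction. Every interval includes 0, and that of Pcdhga10 is the widest.

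Among the C-type genes, Pcdhgc5 was at 1397, 1292, 1919 and 1496 normalized counts in the Anesthesia mice and at 1551, 1623, 1379 and 1445 in the Control mice. The groups overlapped, with 1 Anesthesia mouse above all others. Pcdhac2 was at 1097, 1008, 1216 and 1019 and at 1119, 1146, 1038 and 1013, respectively, with means of 1085 ± 95.7 and 1079 ± 63.6 (SD, n = 4). Pcdhgc3 was at 762, 937, 905 and 969 and at 811, 799, 896 and 821, with a log2 fold change of 0.098 (SE 0.085, adjusted p = 0.762 by limma). Pcdhgc4 and Pcdhac1 overlapped as well, at 316 to 345 against 294 to 329 and at 148 to 225 against 151 to 215.

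In the alpha cluster, 13 of 14 members, all but Pcdha2, had a log2 fold change above 0, and the median log2 fold change was 0.13, against a median of -0.0036 over all genes tested, of which 49.2% were above 0. Alpha genes, like gamma genes, share constant exons whose reads were divided by estimation, so their values are not separate measurements. Pcdha3 had the largest log2 fold change, with 125, 202, 197 and 195 normalized counts in the Anesthesia mice and 128, 151, 92.3 and 178 in the Control mice. Its log2 fold change was 0.40 (SE 0.22, adjusted p = 0.665 by limma), and 1 Anesthesia mouse was as low as the lower Control mice. Its value was 0.22 without Control replicate 3. Pcdha9 was at 261, 296, 337 and 302 and at 298, 269, 210 and 247 (log2 fold change 0.23, SE 0.12, adjusted p = 0.660 by limma), and its groups overlapped. Its value was 0.14 without Control replicate 3. Pcdha6, Pcdha7 and Pcdha1 had log2 fold changes of 0.18, 0.025 and 0.039.

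When single mice were left out, the alpha median was lowest without 1 of them, Anesthesia replicate 3. Anesthesia replicate 3 was the highest of the 8 mice in 9 of 14 alpha genes. Its median log2 deviation from the Control mean over these genes was 0.36, against -0.055 to 0.084 in the other Anesthesia mice and -0.13 to 0.078 in the Control mice. Without it, 7 of 14 alpha genes were above 0 and their median log2 fold change was 0.023. The same mouse had the lowest summed level of the CA1 and CA3 marker lists, 9714 and 3884 normalized counts, and of the choroid plexus list, 822. Its dentate granule sum was 6619, above the 6296 of Control replicate 4, but its median log2 deviation for that list was the lowest, at -0.40. Anesthesia replicate 3 had the highest summed level of the GABAergic interneuron (23800), endothelium (6647) and astrocyte (126446) lists and of the protocadherins outside the clusters (31229). Slc1a2 alone gave 87619 of this astrocyte sum, and the median log2 deviation of the astrocyte list in this mouse was -0.024. For the interneuron list its median deviation was 0.085, under the 0.11 of Control replicate 2. The 4 mice with a choroid plexus sum of 27503 or more had alpha deviations of -0.13 to 0.068, and the 4 with 3931 or less had deviations of 0.0067 to 0.36. With the choroid plexus level as a covariate, chosen after seeing the data, 6 of 14 alpha genes were above 0 and their median was -0.015. The choroid plexus level went with the group, with 3 of 4 Anesthesia mice at 3931 or less and 3 of 4 Control mice at 27503 or more, and the part of either in the alpha values was not tested. Without Anesthesia replicate 1 the alpha median was instead 0.20, and without Control replicate 3 it was 0.071. It was 0.084 without Anesthesia replicate 2 and also without Control replicate 4.

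**Figure D5:**
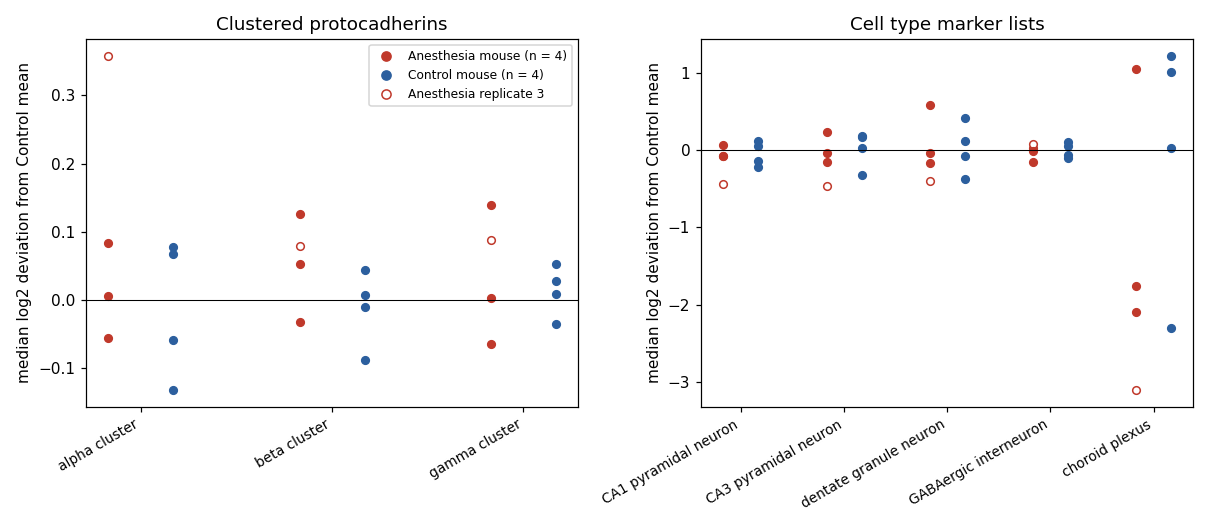
Median log2 deviation from the Control mean over the members of each cluster (left) and over cell type marker lists (right) in each of the 4 Anesthesia (red) and 4 Control (blue) mice; the open circle is Anesthesia replicate 3. That mouse is at 0.36 in the alpha cluster, above the other 7 mice, and is the lowest of the 8 in the choroid plexus list.

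In the beta cluster, 14 of 21 members were above 0, with a median log2 fold change of 0.046. Pcdhb14 was at 323, 321, 387 and 349 normalized counts in the Anesthesia mice and at 327, 308, 291 and 299 in the Control mice (log2 fold change 0.17, SE 0.090, adjusted p = 0.660 by limma). Pcdhb12 was at 137, 103, 127 and 128 and at 161, 139, 156 and 126 (log2 fold change -0.23, SE 0.13, adjusted p = 0.671 by limma). The groups overlapped in both. Pcdhb19 had a log2 fold change of 0.13, and Pcdhb17 and Pcdhb16 had -0.062 and -0.022. Control replicate 3 was the lowest mouse in 9 of 21 beta genes, and without it the beta median was -0.00023.

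In the gamma cluster, 17 of 22 members were above 0, with a median log2 fold change of 0.043. Pcdhga6 was at 390, 333, 338 and 330 normalized counts in the Anesthesia mice and at 288, 350, 286 and 261 in the Control mice (log2 fold change 0.24, SE 0.11, adjusted p = 0.624 by limma), with 1 Control mouse within the Anesthesia range. Pcdhga2 was at 146, 142, 173 and 178 and at 180, 189, 197 and 179 (log2 fold change -0.23, SE 0.11, adjusted p = 0.636 by limma). It was the only member whose groups did not overlap, with 1 of 57 lower and 0 higher, against 5.04% of all genes tested (2.23% lower and 2.81% higher), and its highest Anesthesia mouse was within 1 count of its lowest Control mouse. Pcdhgb6 had a log2 fold change of 0.069.

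Across the 3 clusters, 44 members were above 0 and 13 below. The number below 0 was 22 without Anesthesia replicate 3, 21 without Control replicate 3 and 20 without Anesthesia replicate 2, and 25 with the choroid plexus covariate. With all mice kept, it was 18 with library total scaling and 12 with upper quartile scaling. The split also changed after a correction of the libraries for the GC content and length of transcripts, to 27 above and 30 below, with 8, 12 and 7 above 0 in the alpha, beta and gamma clusters. The alpha median was then 0.058 and the gamma median -0.035. Gamma genes had a median GC content of 52.5%, against 47.7% in alpha and 46.6% in beta genes and 49.5% over all genes tested. Neither split is a result on single members, none of which passed the test in either fit.

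Of 24 regulators of protocadherin promoter choice and silencing, such as CTCF, cohesin subunits and DNA methylation enzymes, 8 were above 0 and 16 below, and none passed after adjustment. Dnmt3a, a de novo DNA methyltransferase, was at 2411, 2636, 3423 and 3287 normalized counts in the Anesthesia mice and at 2087, 2272, 2327 and 2218 in the Control mice, without overlap (log2 fold change 0.39, SE 0.11, adjusted p = 0.568 by limma). Of the 24 regulators, 2 were higher and 0 lower without overlap of the groups, against 2.81% higher and 2.23% lower of all genes tested. Tet3, which oxidises methylated cytosine, was at 1399 ± 179 against 1125 ± 54.0 (SD, n = 4), with an adjusted p of 0.611 by limma and overlapping groups. Ctcf itself was at 1238 ± 107 against 1277 ± 26.8.

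The remaining lists of the pathway gave no adjusted p under 0.05 either. Of 12 protocadherins outside the clusters 9 were above 0 and 3 below, with 0 at an unadjusted p under 0.05, and Pcdh1 and Pcdh17, which had the smallest unadjusted p, had log2 fold changes of 0.13 and 0.15. Of 17 signalling partners 8 were above 0 and 9 below, with 1 higher (Wasf3) and 2 lower (Wasf1 and Pdcd10) at an unadjusted p under 0.05, against 4.75% higher and 3.27% lower of all genes tested. Among them Wasf1, a subunit of the WAVE actin regulator, had a log2 fold change of -0.20 and Pdcd10 one of -0.21 (adjusted p = 0.620 by limma for both). Of 8 genes of proteolytic processing, which releases the intracellular part of the protein, 2 were above 0 and 6 below, with 0 at an unadjusted p under 0.05, and the gamma-secretase subunits Ncstn and Aph1b both had -0.11. Of 12 classical cadherins and catenins 5 were above 0 and 7 below, with 1 higher at an unadjusted p under 0.05, against the same 4.75%. This was Ctnnd2, a neuronal catenin, which had a log2 fold change of 0.28 without overlap between the groups (adjusted p = 0.620 by limma), while Ctnnb1 had -0.14. Of these 12 genes, 1 was higher and 0 lower without overlap, against 2.81% higher and 2.23% lower of all genes tested.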

How the data were processed

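Hippocampal RNA of 4 Anesthesia and 4 Control mice, separate animals according to the study's methods, was analysed. The authors mapped reads to GRCm38 with Salmon v1.1.0 (quasi-mapping, GC bias correction), summarised genes with tximport and deposited DESeq2 v1.30.1 normalized counts, a depth-corrected signal, 1 value per gene and mouse (R 3.5.3). The annotation release is not given in the sources used here, and the paper and the labels name different TruSeq library kits. Between 50.1% and 72.9% of low values in a library were within 0.1 of whole reads. The normalized values were therefore not treated as read counts, and a count model was not used.

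Symbols came from GENCODE M21, which held 20784 of 20802 identifiers and lacked 18. Values were compared with limma 3.58.1 in R 4.3.3, with a mean-variance trend, on log2(value + 1) without covariates. The 18865 genes whose mean reached 10 were tested, leaving out 1937, with Benjamini-Hochberg adjustment over all of them and a threshold of 0.05. This scale understates changes of low genes. The procedure was tested on simulated data. Levels per kilobase used the longest coding transcript, and word sharing used all annotated transcripts and a length of 31.

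The members, gene lists and tests were chosen with earlier results of these data known. Named with values are the C-type genes and, in each cluster, the 3 highest per kilobase, the 3 with the smallest unadjusted p and the lowest, and in each other list the 2 with the smallest unadjusted p. Pcdha2, Pcdha4, Pcdhb6, Pcdhb15, Pcdhb22, Pcdhga3, Pcdhga4, Pcdhga5, Pcdhga7, Ctcf, Wasf3, Slc1a2, Gm36858 and Gm38182 were named after their values were seen. Sequences of the members are not printed here, and some genes of the lists are not reported here.

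Alternatives were limma voom, upper quartile and library total scaling, a replicate block, a loess correction for GC content and length (span 0.3) alone and with the block, no filter, a minimum of 10 in all libraries, 0.1 as pseudocount, leaving out single mice, and 0.10 as the threshold. A choroid plexus covariate and the mean transcript length were added after seeing the data.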

Additional observations from a re-analysis of the deposited data

Results flagged for a closer look

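Among 170 groups of 4 mice examined, 8 held a mouse whose distance from the others exceeded Dixon's 95% critical value for its gap relative to the group's range, and chance at 1 in 20 gives 8.5. Of the members, Anesthesia replicate 1 was the lowest of its group in Pcdha3, at 125 normalized counts against 195 to 202, and in Pcdha4, at 135 against 232 to 236. It was the highest in Pcdhga6, at 390.3 against 330.4 to 338. Control replicate 1 was the lowest in Pcdhga5, at 157 against 192 to 196, and Control replicate 3 in Pcdhgc4, at 294 against 324 to 329.

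Outside the members, Anesthesia replicate 1 was the lowest of its group in the summed microglia list, at 6298 normalized counts against 7002 to 7112, and the highest in the summed choroid plexus list, at 59014 against 822 to 3931. Anesthesia replicate 3 was the highest in Ctnnd2, at 3268 against 2570 to 2645.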

How the results depend on the processing

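No member had an adjusted p under 0.05, or under 0.10, under any alternative, and the smallest was 0.400. Members with an unadjusted p under 0.05 numbered 1 with upper quartile scaling (Pcdhga6) and 1 with the GC and length correction (Pcdhga2), against 0 otherwise with all mice kept, and 0 to 5 with a mouse left out; the 5, without Anesthesia replicate 1, were Pcdha3, Pcdha4, Pcdha9, Pcdhb19 and Pcdhgc3, and the 2 without Control replicate 2 were Pcdhga10 and Pcdhga6. The replicate numbers did not pair the mice (correlations of -0.242, -0.109, -0.182 and 0.019), and the replicate block gave 0 adjusted calls and 0 members with an unadjusted p under 0.05, or 1 together with the GC and length correction. With that correction, with or without the block, the gamma median was -0.035 and the alpha median 0.058, and Pcdhgc3 was at 0.013 in place of 0.098. The cause was not tested. With a mouse left out the median ran from 0.023 (Anesthesia replicate 3) to 0.20 (Anesthesia replicate 1) in alpha, from -0.00023 (Control replicate 3) to 0.066 (Control replicate 4) in beta and from 0.015 (Anesthesia replicate 2) to 0.082 (Anesthesia replicate 1) in gamma genes.

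The log2 fold change kept its sign in 11 of 20 named members under every alternative. With the GC and length correction, with or without the block, it was -0.0026 for Pcdhac1, -0.10 for Pcdhac2, -0.030 for Pcdhgc4, -0.066 for Pcdhgc5, -0.068 for Pcdha7, -0.050 for Pcdha1 and -0.032 for Pcdhgb6. With library total scaling it was -0.0020 for Pcdhac2. With the choroid plexus covariate it was -0.059 for Pcdhac1, -0.030 for Pcdhac2, -0.068 for Pcdhgc5, -0.12 for Pcdha7 and -0.17 for Pcdha1. With a mouse left out it ran from -1.04 to -0.32 for Pcdhga10, from 0.22 to 0.56 for Pcdha3, from 0.14 to 0.31 for Pcdha9, from -0.0040 to 0.19 for Pcdhac1, from -0.050 to 0.040 for Pcdhac2, from -0.10 to 0.086 for Pcdhgc5, from -0.034 to 0.11 for Pcdha7, from -0.27 to 0.19 for Pcdha1, from -0.099 to 0.0031 for Pcdhb17, from -0.085 to 0.028 for Pcdhb16 and from -0.00022 to 0.11 for Pcdhgb6.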
